A study of Homo sapiens with 34 samples.

Results

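NFKBIA, TNFAIP3, NFKB2, RELB, CCL2, CXCL1, CXCL8, CXCL10 and LCN2 are genes that NF-kB switches on, and their RNA was followed across an androgen-dependent and an androgen-independent prostate cancer line. They were chosen by symbol from the table of RNA levels, with results of these data already known: 8 of the 9 genes have a row among the 28071 genes of the RNA-seq table, and 6 have a row among the 25035 genes of the RNA immunoprecipitation table. CXCL10 in both tables, and CXCL1 and CXCL8 in the immunoprecipitation table, were not analysed here. The levels described below may be part of why the genes were picked, so the comparisons between lines and between transfected and untreated cells are given as descriptions, without a test of the genes themselves.

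LNCaP is a human prostate cancer cell line that grows in response to androgen. AI denotes its androgen-independent form, kept in RPMI1640 with charcoal-stripped serum, which is depleted of steroids, and AD the androgen-dependent form in RPMI1640. The study compared the 2 forms by RNA-seq, by RNA immunoprecipitation with an anti-EZH2 antibody or IgG from ultraviolet-crosslinked cells (RIP), and by chromatin immunoprecipitation (ChIP) of EZH2 and of H3K27me3, the repressive mark that EZH2 writes. RNA-seq groups were AI and AD cells transfected with an EZH2 siRNA (siEZH2), AI and AD cells given the control siRNA (mock) and AI and AD cells with no transfection in their titles (untreated), with 2 libraries each. RIP groups were EZH2 and IgG from AI and from AD, 2 libraries each, and ChIP groups were H3K27me3 with 2 peak lists from AI and 2 from AD, and EZH2 with 1 from AI and 2 from AD. Line and serum change together, so their shares cannot be told apart. The labels put cell collection 24 h after lipid-mediated transfection, and name LNCaP/abl as the transfected cells although AD libraries carry siRNA names too. Library titles were followed for the groups. Nothing in the labels says whether replicates were separate cultures, so any p-value measures only the spread between these libraries, which may be technical.

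NF-kB dimers wait in the cytoplasm bound to IkB proteins. Ligands such as TNF, or sensors of foreign nucleic acid, set off kinases that mark IkB for destruction, and the freed dimers enter the nucleus and bind kappaB motifs in promoters. Among the genes they turn on are their own brakes, their own subunits and secreted signals that draw white blood cells, so these RNAs are a common readout of the pathway in epithelial cells.

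The prostate luminal markers KLK3, KRT8 and KRT18 were at or above 0.5 RPKM (reads scaled by transcript length and by library size) in each of the 12 RNA-seq libraries. None of 10 white blood cell markers, including PTPRC and CD14, reached 0.5 RPKM in any library, and their summed level was 0.05 to 0.36 RPKM in transfected AI, 0.49 to 1.0 RPKM in transfected AD, 0.07 to 0.42 RPKM in untreated AI and 0.07 to 0.15 RPKM in untreated AD libraries. The 8 stromal and endothelial markers summed to 4.0 and 3.6 RPKM in untreated AD and to 0.24 to 1.49 RPKM in the other libraries. Most of the untreated AD sum was VWF, at 3.53 and 3.28 RPKM. Depth, estimated from the step between low values, was 7.42 to 12.6 M reads in 7 transfected libraries, with no estimate for AI siEZH2 replicate 1, and 17.3 to 57.9 M reads in the untreated ones. Mitochondrially encoded genes made up 2.1 to 4.07% of the summed RPKM in transfected and 18.4 to 33.5% in untreated libraries. Depth and mitochondrial share thus moved with the split between transfected and untreated libraries, and transfection cannot be told apart from anything else that separates them.

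The promoters that could be searched carry the binding letters of the pathway, in at least 1 window per gene. Those of genes on which the results turn are shown here. The RefSeq table of promoters, build GRCh38.p14, holds windows of 300 bases, from 250 before to 50 after an annotated start, for 7 of the 9 genes in 9 windows. CCL2 and RELB had no window in it. Capitals mark each match to GGNNNTTCC, a core of the kappaB motif, on either strand.
NFKBIA, chr14:35404700-35404999, minus strand: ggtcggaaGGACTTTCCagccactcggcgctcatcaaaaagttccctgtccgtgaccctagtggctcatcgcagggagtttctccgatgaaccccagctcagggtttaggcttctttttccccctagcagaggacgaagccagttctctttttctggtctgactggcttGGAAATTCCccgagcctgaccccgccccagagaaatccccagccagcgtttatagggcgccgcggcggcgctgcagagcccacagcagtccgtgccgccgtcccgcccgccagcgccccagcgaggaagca
TNFAIP3, chr6:137867009-137867308, plus strand: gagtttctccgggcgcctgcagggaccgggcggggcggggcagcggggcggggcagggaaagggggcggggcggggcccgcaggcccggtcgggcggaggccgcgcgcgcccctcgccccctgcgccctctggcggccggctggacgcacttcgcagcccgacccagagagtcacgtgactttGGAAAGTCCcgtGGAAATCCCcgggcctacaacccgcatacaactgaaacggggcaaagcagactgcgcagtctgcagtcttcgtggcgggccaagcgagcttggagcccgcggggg
NFKB2, chr10:102395455-102395754, plus strand: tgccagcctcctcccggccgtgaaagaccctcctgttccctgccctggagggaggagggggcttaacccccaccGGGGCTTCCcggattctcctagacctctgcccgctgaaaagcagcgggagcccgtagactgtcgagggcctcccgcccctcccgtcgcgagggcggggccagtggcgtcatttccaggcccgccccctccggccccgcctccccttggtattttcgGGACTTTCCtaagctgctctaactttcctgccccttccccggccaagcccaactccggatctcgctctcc
CXCL8, chr4:73740319-73740618, plus strand: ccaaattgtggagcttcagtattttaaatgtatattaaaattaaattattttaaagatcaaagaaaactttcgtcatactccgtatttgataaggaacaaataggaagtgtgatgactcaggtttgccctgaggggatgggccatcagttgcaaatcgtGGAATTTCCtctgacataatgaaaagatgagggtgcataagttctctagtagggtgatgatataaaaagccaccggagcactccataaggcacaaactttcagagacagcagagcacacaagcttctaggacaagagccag
CXCL1, chr4:73869143-73869442, plus strand: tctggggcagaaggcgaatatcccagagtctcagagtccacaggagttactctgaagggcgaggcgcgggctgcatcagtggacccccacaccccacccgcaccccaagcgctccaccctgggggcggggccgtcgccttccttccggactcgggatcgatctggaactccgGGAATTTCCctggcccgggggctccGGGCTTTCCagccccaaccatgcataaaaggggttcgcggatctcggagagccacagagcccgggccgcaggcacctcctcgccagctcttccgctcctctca
LCN2, chr9:128149203-128149502, plus strand: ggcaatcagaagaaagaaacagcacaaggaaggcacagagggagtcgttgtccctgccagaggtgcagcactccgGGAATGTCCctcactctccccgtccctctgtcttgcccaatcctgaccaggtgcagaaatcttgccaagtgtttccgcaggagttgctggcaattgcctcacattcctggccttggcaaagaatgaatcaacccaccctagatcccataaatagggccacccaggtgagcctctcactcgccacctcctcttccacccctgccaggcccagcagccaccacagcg
Counting the annotated start as 0, the match in the LCN2 window begins at -175, that in the CXCL8 window at -91, and those in the TNFAIP3 window at -67 and -55. The NFKBIA window has matches at -242 and -81, the CXCL1 window at -78 and -53, and the NFKB2 window shown, 1 of 3 for that gene, at -176 and -20. Of the NFKB2 windows not shown, chr10:102393860-102394159 holds no match, and chr10:102394328-102394627 has matches at -107, -106 and -77. All 7 genes with a window hold at least 1 GGNNNTTCC, which occurs in 20.1% of the 35116 windows in the table and in 23.5% of its 27305 genes. The narrower form with a further G before these letters, each match of which contains the wider one, was found for 6 of the 7, CXCL8 being without it, and occurs in 6.52% of the windows and 7.83% of the genes. Both motifs were searched on both strands, and a palindromic match counts once per position. A match of letters is not a measured binding site.

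NFKBIA encodes IkB alpha, which pulls NF-kB out of the nucleus and is itself among the quickest targets. In untreated cells it had 38.3 and 30.6 RPKM in AI, against 58.2 and 45.8 RPKM in AD. In mock cells it had 220.4 and 226 RPKM in AI, against 195 and 216 RPKM in AD. The mock libraries of both lines thus lay far above their untreated ones, 6.49-fold by the ratio of means in AI and 3.96-fold in AD. On the scale used for all fits, log2(RPKM + 0.5), the mock minus untreated difference was 2.69 ± 0.14 (SE, n = 2 each) in AI and 1.98 ± 0.14 in AD. Both AI mock libraries lay just above both AD ones: AI minus AD for NFKBIA was 0.12 ± 0.14 in mock cells, and this value was -0.11 after quantile normalization, -0.05 without mitochondrial genes and 0.65 after TMM scaling. Ordered by mean level, every transfected group stood above both untreated groups, and among the 4 transfected groups only AI siEZH2 had no overlap with its neighbour.

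TNFAIP3 encodes A20, a ubiquitin editor that switches off signalling upstream of the IkB kinases. It was a low RNA throughout, with 0.58 and 0.46 RPKM in untreated AI, against 0.23 and 0.36 RPKM in untreated AD. Mock cells held 1.65 and 1.04 RPKM in AI, against 3.86 and 3.36 RPKM in AD. The order of the lines was therefore opposite in the 2 states, without overlap in either. The mock minus untreated difference was 0.84 ± 0.19 in AI and 2.37 ± 0.19 in AD.

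NFKB2 encodes the precursor of the p52 subunit, and RELB encodes the partner of p52 in the slower, non-canonical branch of the pathway. NFKB2 had 21.4 and 23.9 RPKM in untreated AI, against 26.2 and 29.6 RPKM in untreated AD, and 37.1 and 37.4 RPKM in mock AI, against 85.3 and 85.1 RPKM in mock AD. Mock minus untreated was 0.71 ± 0.10 in AI and 1.60 ± 0.10 in AD, which left mock AI at 0.437 times the level of mock AD. RELB had 1.76 and 1.85 RPKM in untreated AI, against 1 and 0.48 RPKM in untreated AD, so AI stood higher there. In mock cells RELB had 3.79 and 4.12 RPKM in AI, against 5.63 and 7.13 RPKM in AD. Both AD mock libraries were above both AI ones, although the AI minus AD difference of -0.62 ± 0.25 shrank to -0.13 after TMM scaling and -0.05 after quantile normalization. RELB's mock minus untreated difference was 0.95 ± 0.25 in AI and 2.50 ± 0.25 in AD.

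CCL2 is the chemokine that recruits monocytes. It was listed at 0 in both untreated AD libraries and at 0.1 RPKM in both untreated AI ones. In mock cells CCL2 had 0.3 and 0.42 RPKM in AI, against 13.8 and 15.5 RPKM in AD, an AI minus AD difference of -4.14 ± 0.21. Because untreated AD was at 0, no fold is given for AD, and CCL2 passed the filter on low values only through transfected libraries. CXCL8, which attracts neutrophils, followed the same order at a lower level: 0.11 and 0.23 RPKM in mock AI, 0.99 and 1.25 RPKM in mock AD, 0.03 and 0.01 RPKM in untreated AI, and 0 in both untreated AD libraries. Only transfected AD libraries brought it past the filter. CXCL1, a neutrophil chemokine of the same receptor, was listed at 0 in 11 of 12 libraries and at 0.08 RPKM in AD mock replicate 2, did not pass the filter, and has near-identical paralogs, so a read could have been assigned elsewhere.

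LCN2 encodes lipocalin 2, a secreted protein that withholds iron from bacteria by binding their siderophores. In mock cells it had 0.64 and 0.08 RPKM in AI, against 115 and 117 RPKM in AD. In untreated cells LCN2 had 0.88 and 0.38 RPKM in AI, against 0.28 and 0 RPKM in AD. Its highest value in any AI library was thus below 1 RPKM, while the transfected AD libraries placed it above NFKB2 on this per-length scale. AI minus AD was -7.16 ± 0.33 in mock cells and 0.82 ± 0.33 in untreated cells. Mock minus untreated was 7.54 ± 0.33 in AD and -0.44 ± 0.33 in AI, and without AI mock replicate 2 the AI value was 0.05. In bulk RNA, fewer cells expressing a gene and less RNA per cell cannot be told apart.

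**Figure D1:**
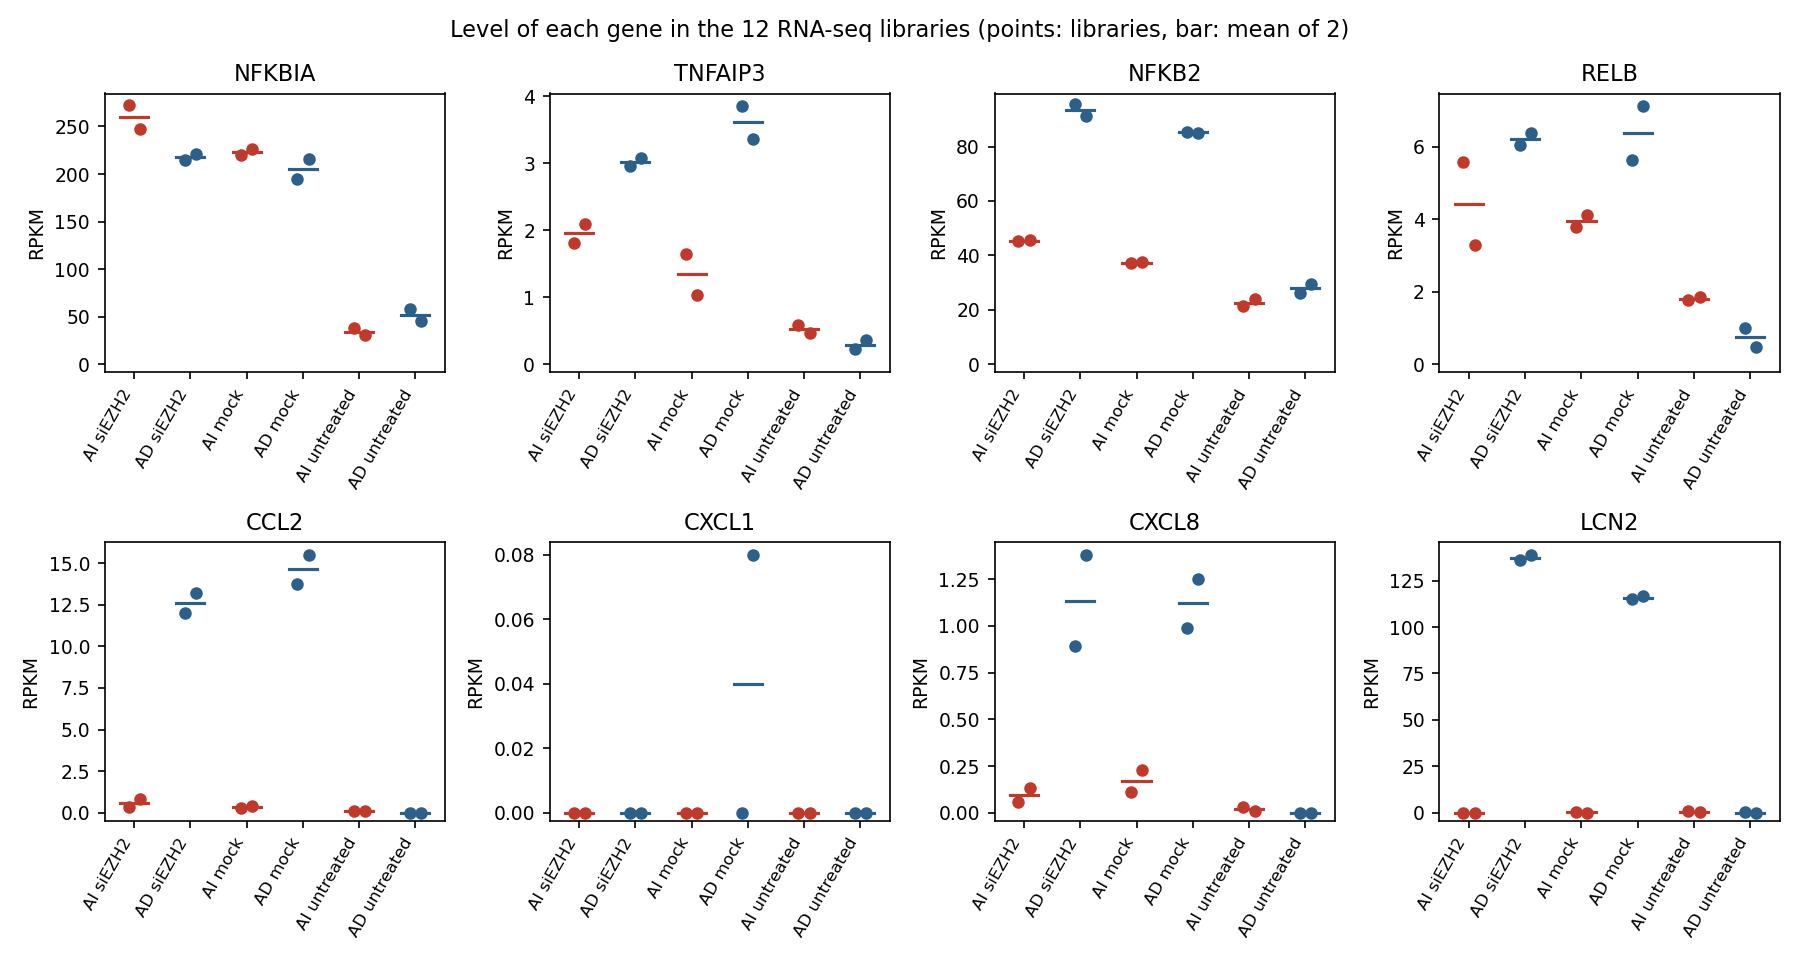
RNA level in RPKM (y axis, linear, a scale of its own for each gene) in the 6 RNA-seq groups (x axis), with a point for each of the 2 libraries and a bar for their mean, AI in red and AD in blue. LCN2 sits above 114 RPKM in the 4 transfected AD libraries and below 1 RPKM in the other 8, whereas NFKBIA is high in the transfected libraries of both lines.

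Cells given the EZH2 siRNA were set side by side between the lines in the same way. LCN2 had 0 RPKM in both siEZH2 AI libraries, against 136 and 139 RPKM in siEZH2 AD. CCL2 had 0.34 and 0.83 RPKM in siEZH2 AI, against 12 and 13.2 RPKM in siEZH2 AD. NFKB2 had 45.3 and 45.6 RPKM in siEZH2 AI, against 95.8 and 91.4 RPKM in siEZH2 AD. These 3 genes kept the order of the lines seen in mock cells. AI minus AD within siEZH2 cells was -3.63 ± 0.21 for CCL2, -1.44 ± 0.21 for CXCL8, -1.03 ± 0.10 for NFKB2, -0.52 ± 0.19 for TNFAIP3, -0.48 ± 0.25 for RELB and 0.25 ± 0.14 for NFKBIA. The TNFAIP3 value changed sign to 0.22 after quantile normalization, and the RELB value to 0.15 after quantile normalization and 0.05 after TMM scaling. Across the 8 listed genes, 6 were lower in both AI mock libraries than in both AD mock libraries, NFKBIA was higher and CXCL1 overlapped, and the same numbers held within siEZH2 cells. Separation of this kind between 2 and 2 libraries was common: among the 14227 genes that passed the filter, 58.4% were lower and 22.7% higher in AI without overlap in mock cells, and 61.5% and 20.0% in siEZH2 cells. Limma called 43.5% of 14227 genes lower and 12.2% higher in mock AI than in mock AD, and 47.1% lower and 10.6% higher in siEZH2 AI than in siEZH2 AD, so a lower level in AI was common among all genes. In untreated cells, 5 of the 8 were higher in AI without overlap, 2 were lower and 1 overlapped, where 37.6% of all genes that passed the filter were higher and 22.3% lower without overlap. Several of these untreated levels are near 0, and by limma 22.2% of all genes were called higher and 12.4% lower there.

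**Figure D2:**
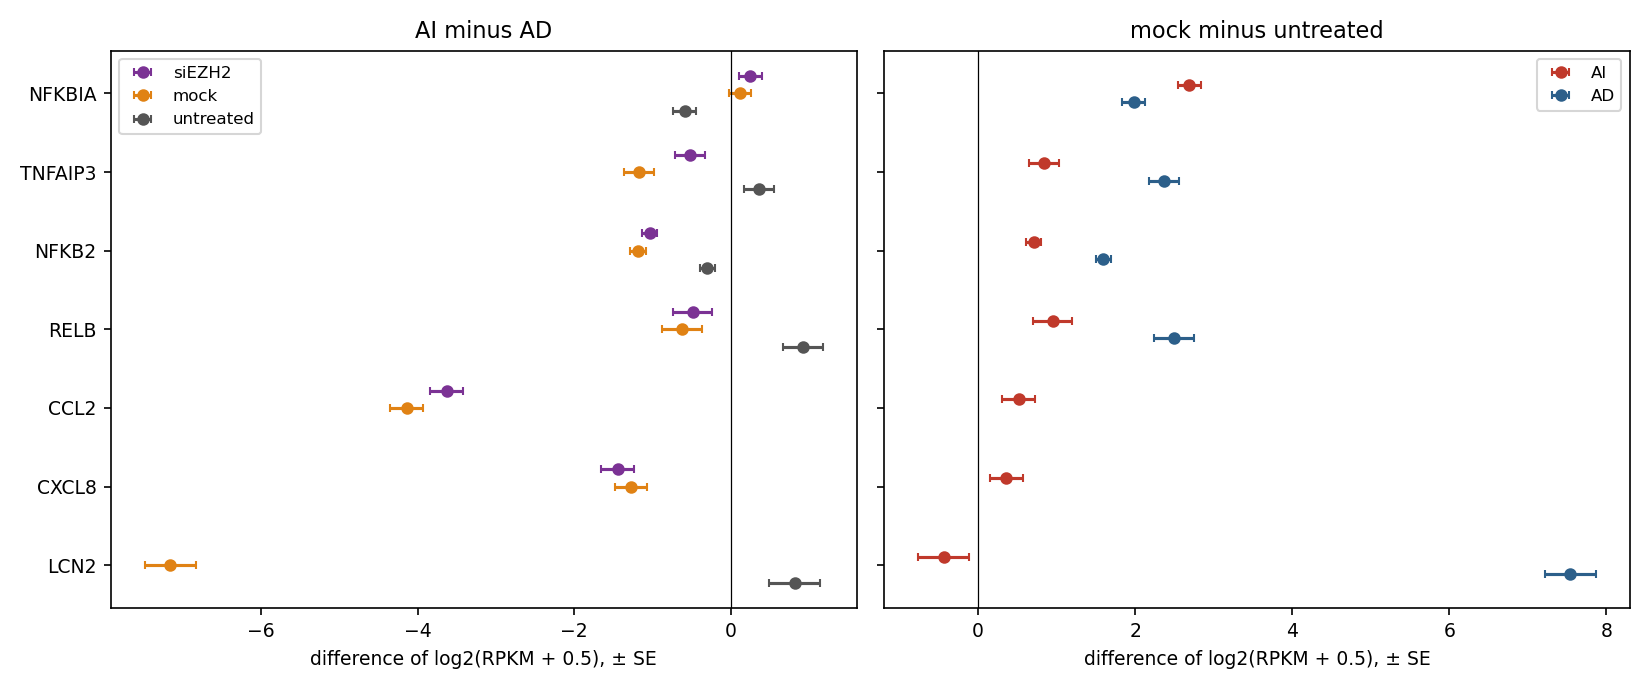
Differences on the log2(RPKM + 0.5) scale (x axis, points with SE) for the 7 genes that passed the filter (y axis), AI minus AD in siEZH2, mock and untreated cells on the left and mock minus untreated in AI and in AD on the right. Values against a group in which both libraries are at 0 are left out. On the right the AD points lie further from 0 than the AI points for TNFAIP3, NFKB2, RELB and LCN2, and nearer to 0 for NFKBIA.

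The size of the mock effect was set side by side for the lines as the mock minus untreated difference in AI less that in AD. It was -7.98 ± 0.46 for LCN2, -1.55 ± 0.36 for RELB, -1.53 ± 0.27 for TNFAIP3 and -0.89 ± 0.14 for NFKB2. NFKBIA alone among the 5 genes measured above 0 in at least 1 library of every one of these groups had a positive value, 0.71 ± 0.20. The median of all 14227 genes for this quantity was -0.54, and 0.01 after quantile normalization. Limma called 41.2% of them lower and 8.99% higher in the main fit. The signs of these 5 values held in each of 17 alternative fits, but their sizes moved. NFKB2 ranged from -1.07 to -0.20, TNFAIP3 from -2.05 to -0.82 and RELB from -1.92 to -0.88. LCN2 ranged from -10.1 to -6.97 and NFKBIA from 0.52 to 1.40. This comparison was added after the data had been seen.

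Other genes of the pathway, from lists without the 9 genes, were counted with limma at a Benjamini-Hochberg adjusted p under 0.05 over all genes. The lists were drawn up with earlier results of these data known, so the calls describe these genes and are not an independent test. Of 125 listed genes, 107 had a row and 72 passed the filter. In AD, 49 of the 72 were higher in mock than in untreated cells and 2 were lower, where 37.6% of all genes were called higher and 7.73% lower. Their median difference was 0.87, against 0.35 over all genes. In AI, 20 were higher and 20 lower, where 21.5% of all genes were called higher and 35.5% lower, and the median was 0.00, against -0.20 over all genes. Scaling changed these splits: AD gave 32 higher and 5 lower after quantile normalization and 33 and 5 after TMM, and AI gave 26 higher and 15 lower after quantile normalization, 23 and 17 after TMM, and 18 and 31 without mitochondrial genes. Shares of all genes called under each scaling are not given here. The medians of the 72 genes and of all genes were 0.51 and -0.005 in AD after quantile normalization, and 0.19 and -0.0005 in AI. After TMM they were 0.52 and -0.004 in AD, and 0.13 and -0.02 in AI. Without mitochondrial genes they were 0.70 and 0.16 in AD, and -0.36 and -0.52 in AI.

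The subunit NFKB1 moved in opposite directions. It fell to 3.18 ± 0.06 RPKM in mock AI, against 7.90 ± 0.30 RPKM in untreated AI (SD, n = 2 each). In AD it rose to 11.4 ± 0.13 RPKM in mock cells, against 2.86 ± 0.20 RPKM in untreated cells. Among the other IkB-family inhibitors 4 of 5 rose in AD, and 2 rose and 2 fell in AI. BCL3, a nuclear IkB protein, was the largest riser of that list in both, by 3.00 ± 0.13 in AI and 2.31 ± 0.13 in AD on the log2 scale. NFKBIE, which encodes IkB epsilon, rose by 2.03 ± 0.23 in AD. All 10 tested feedback genes and ubiquitin editors rose in AD, but 2 of 10 were called after quantile normalization or TMM. In AI 4 of these 10 rose, led by the RNA-decay factor ZFP36 at 1.96 ± 0.29, and 2 fell, the deubiquitinase CYLD by 1.43 ± 0.16 on the log2 scale being the larger.

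The kinases of the pathway were called about as often as all genes in AD. There 4 of 11 rose and 1 fell (2 and 1 after quantile normalization or TMM), with IKBKE at 1.66 ± 0.21 and TAB3 at -1.07 ± 0.19. In AI 1 rose and 5 fell: MAP3K14, the kinase NIK of the non-canonical branch, rose by 3.03 ± 0.15, while RIPK1, the kinase at the TNF receptor, was at 0.29 ± 0.04 RPKM in mock AI, against 7.54 ± 1.07 RPKM in untreated AI. IKBKB, an IkB kinase subunit, fell by 1.58 ± 0.16 on the log2 scale in AI. Of 16 receptors and adaptors 9 rose and 1 fell in AD, with the ubiquitin ligase BIRC3 at 2.78 ± 0.18. In AI 3 rose and 5 fell, with the TWEAK receptor TNFRSF12A at 2.26 ± 0.14 and the Toll-like receptor adaptor MYD88 at -1.71 ± 0.22. The AI split was near that of all genes, of which 21.5% were called higher and 35.5% lower. After quantile normalization 6 receptors and adaptors rose and 2 fell in AD, and 6 rose and 5 fell in AI. Among 5 activating ligands, 4 rose in AD, and 1 rose and 2 fell in AI.

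Chemokines beyond CCL2, CXCL1, CXCL8 and CXCL10 were mostly too low to test, with 4 of 21 passing the filter. Of these, 3 were higher in mock AD than in untreated AD, and none was called in AI by limma. CCL20, which attracts cells bearing CCR6, averaged 6.97 ± 1.61 RPKM and CCL8 2.24 ± 0.47 RPKM in mock AD, and both were listed at 0 in untreated AD. Of the chemokine receptors, CXCR4 averaged 2.58 ± 0.04 RPKM in mock AI, against 0.03 ± 0.04 RPKM in untreated AI, and the scavenging receptor ACKR3 fell to 2.45 ± 0.19 RPKM in mock AI, against 30.7 ± 1.03 RPKM in untreated AI. SLC22A17, a reported LCN2 receptor, rose in AD by 1.08 ± 0.21. Other NF-kB-induced genes rose in 12 of 15 cases in AD and in 8 of 15 in AI, where 2 fell. IER3, a stress-response gene, rose in both, by 5.75 ± 0.18 in AI and 4.96 ± 0.18 in AD, and IRF1, a transcription factor also induced by interferon, rose by 3.26 ± 0.22 in AD.

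**Figure D3:**
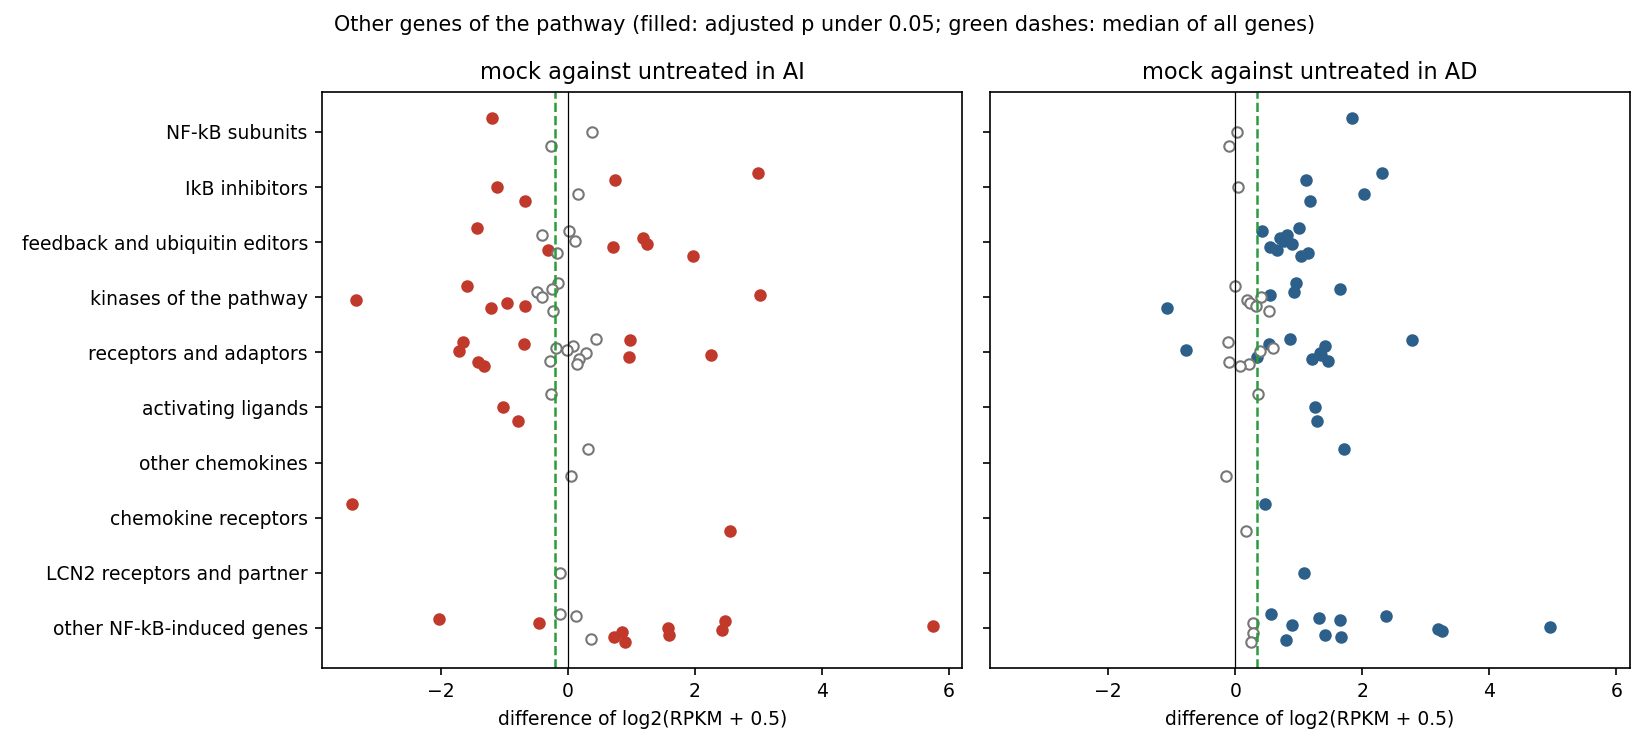
Mock minus untreated difference on the log2(RPKM + 0.5) scale (x axis) for other genes of the pathway, grouped by role (y axis), in AI on the left and AD on the right, with filled points for a limma adjusted p under 0.05 and a dashed line at the median of all genes. In AD 49 of 72 genes were called higher and 2 lower, and in AI 20 and 20, and genes at 0 in a group are not drawn.

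Set against AD directly, mock AI had 49 of the 72 pathway genes lower and 10 higher by limma, with a median of -0.90 beside -0.41 over all genes. Of all genes, 43.5% were called lower and 12.2% higher there. Quantile normalization gave 32 lower and 14 higher, and TMM 36 and 15. Shares of all genes called under each scaling are not given, here or for the comparisons below. The median of the 72 genes was -0.43 after quantile normalization, beside 0.02 over all genes, and -0.50 after TMM. The lower genes included CD83, an activation marker of antigen-presenting cells, at 0.44 ± 0.18 RPKM in mock AI, against 7.82 ± 0.05 RPKM in mock AD. The acute-phase gene SAA1 was listed at 0 in mock AI, against 3.43 ± 0.37 RPKM in mock AD, and has a near-identical paralog. KLF6, a zinc-finger factor, went the other way at 2.63 ± 0.17, as did TNFRSF1A, the main TNF receptor, at 0.83 ± 0.11. In siEZH2 cells 48 were lower and 8 higher in AI, with a median of -0.88 beside -0.48 (34 and 15 after quantile normalization, 35 and 16 after TMM). The medians were -0.30 beside 0.03 after quantile normalization, and -0.46 beside -0.03 after TMM. In untreated cells the split was even, with 14 higher and 12 lower and a median of 0.14 beside 0.13, while quantile normalization gave 8 higher and 13 lower and TMM 8 and 12. NFKB1 stood higher in untreated AI, at 7.90 ± 0.30 RPKM, against 2.86 ± 0.20 RPKM in untreated AD, the reverse of mock cells.

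Cells given the EZH2 siRNA were next set against mock cells of the same line. How the genes were picked is known only in part, and these contrasts were tested on the assumption that the siEZH2 effect played no part in it. EZH2's own RNA had 3.6 and 4.33 RPKM in siEZH2 AI, against 7.07 and 5.44 RPKM in mock AI, so both siEZH2 libraries were below both mock ones. The ratio of means was 0.634 and the difference -0.59 ± 0.18, with a limma unadjusted p of 0.0096 and an adjusted p of 0.126 over all genes. In AD it had 11.5 and 10.7 RPKM in siEZH2 cells, against 11 and 12.5 RPKM in mock cells (limma adjusted p of 1), and these groups overlapped. A knockdown was thus not seen at the RNA level in AD and not called in AI. The contrasts below therefore compare siRNA with mock and cannot say what a loss of EZH2 does. Untreated cells had 10.1 and 12.6 RPKM in AI, against 5.21 and 6.94 RPKM in AD, and the order of the lines for EZH2 itself was thus opposite in untreated and transfected cells. None of the 7 tested genes was called between siEZH2 and mock cells of either line. In AI, however, LCN2, CCL2 and CXCL8 reached at most 0.64, 0.83 and 0.23 RPKM in the siEZH2 and mock libraries. At such levels a fall could hardly have been called, so the lack of a call in AI says little about them. Limma called 1.46% of all genes in AI and 0.0141% in AD, that is 208 genes (2675 at an unadjusted p under 0.05) and 2 genes (544 unadjusted). Both counts were 0 when any 1 library of the contrast was left out.

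NFKB2 came nearest, with both siEZH2 AI libraries above both mock AI libraries and a difference of 0.28 ± 0.10 (limma adjusted p of 0.167, within 0.0445 to 0.439 over 13 alternatives). The 0.0445, a call, came from the fit of the siEZH2 and mock AI libraries alone. Non-overlap was common in these contrasts, holding for 54.0% of all genes in AI and 41.7% in AD. TNFAIP3 had 1.81 and 2.1 RPKM in siEZH2 AI, against 1.65 and 1.04 RPKM in mock AI (0.43 ± 0.19, limma adjusted p of 0.264). In AD it had 2.96 and 3.08 RPKM in siEZH2 cells, against 3.86 and 3.36 RPKM in mock cells (-0.22 ± 0.19, limma adjusted p of 1). The TNFAIP3 libraries of the 2 groups did not overlap in either line, and neither difference passed the threshold. LCN2 was at 0 in both siEZH2 AI libraries, beside 0.64 and 0.08 RPKM in mock AI (limma adjusted p of 0.285). In AD, LCN2's siEZH2 minus mock difference was 0.25 ± 0.33, CCL2's was -0.21 ± 0.21 and NFKBIA's was 0.08 ± 0.14. The difference of the siEZH2 effects between the lines was likewise not called by limma for any of the 7, TNFAIP3 having 0.65 ± 0.27 with an adjusted p of 0.710, and 0 of 14227 genes were called (976 at an unadjusted p under 0.05). Of the 72 pathway genes, limma called 0 in either line or in the difference.

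RIP asks which RNAs come down with EZH2. NFKB2 RNA had 9.93 and 17.1 RPKM in the EZH2 RIP of AI, against 3.23 and 3.05 RPKM in IgG. In AD it had 12.6 and 19.9 RPKM in the EZH2 RIP, against 4 and 6.02 RPKM in IgG. Both EZH2 libraries were above both IgG libraries in each line, as was so for 45.2% of 13667 genes in AI and 31.4% in AD, and the NFKB2 difference was 1.90 ± 0.61 in AI (limma adjusted p of 0.139) and 1.60 ± 0.61 in AD (0.432), neither of which passed the threshold. With a term for the replicate number, the AI value reached a limma adjusted p of 0.0293, within 0.0293 to 0.594 over 12 alternatives. Across all genes the median EZH2 minus IgG difference was 0.88 in AI and 0.43 in AD, and EZH2's own RNA had 19.8 and 15.6 RPKM in the EZH2 RIP of AI, against 3.73 and 0 RPKM in IgG. Limma without that term called 0.0% of the 13667 genes in either line (2930 at an unadjusted p under 0.05 in AI and 1383 in AD), and with it 1338 genes in AI and 483 in AD. NFKB2 did not differ beyond its spread between the EZH2 RIPs of AI and AD (-0.28 ± 0.61, limma adjusted p of 1).

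None of the other transcripts showed this order in both lines. NFKBIA, one of the most abundant of the 8 RNAs in cells, had 2.01 and 2.74 RPKM in the EZH2 RIP of AI, against 1.72 and 6.46 RPKM in IgG, and 2.52 and 6.2 RPKM in the EZH2 RIP of AD, against 0 and 6.81 RPKM in IgG. TNFAIP3 had 0.81 and 1.37 RPKM in the EZH2 RIP of AI, against 0.69 and 2.59 RPKM in IgG, and 0.52 and 0.78 RPKM in the EZH2 RIP of AD, against 0.57 and 0 RPKM in IgG. Their groups overlapped in both lines, and limma adjusted p was 0.793 or higher for both genes in both lines. LCN2, CCL2 and RELB did not pass the filter: LCN2 appeared in 1 of 8 libraries at 0.27 RPKM, in the EZH2 RIP of AD. CCL2 had 0.11 and 0.19 RPKM in the EZH2 RIP of AI, against 0 RPKM in both IgG libraries, and the opposite order in AD, with 0.22 and 0 RPKM in the EZH2 RIP, against 2.4 and 0.48 RPKM in IgG. IgG libraries were shallow, 0.365 to 1.87 M reads in the 3 with an estimate against 4.66 to 8.2 M reads in the EZH2 RIPs, and 1 read on a 1-kb transcript was worth up to 2.74 RPKM there. A level of that size in IgG can be a single read.

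**Figure D4:**
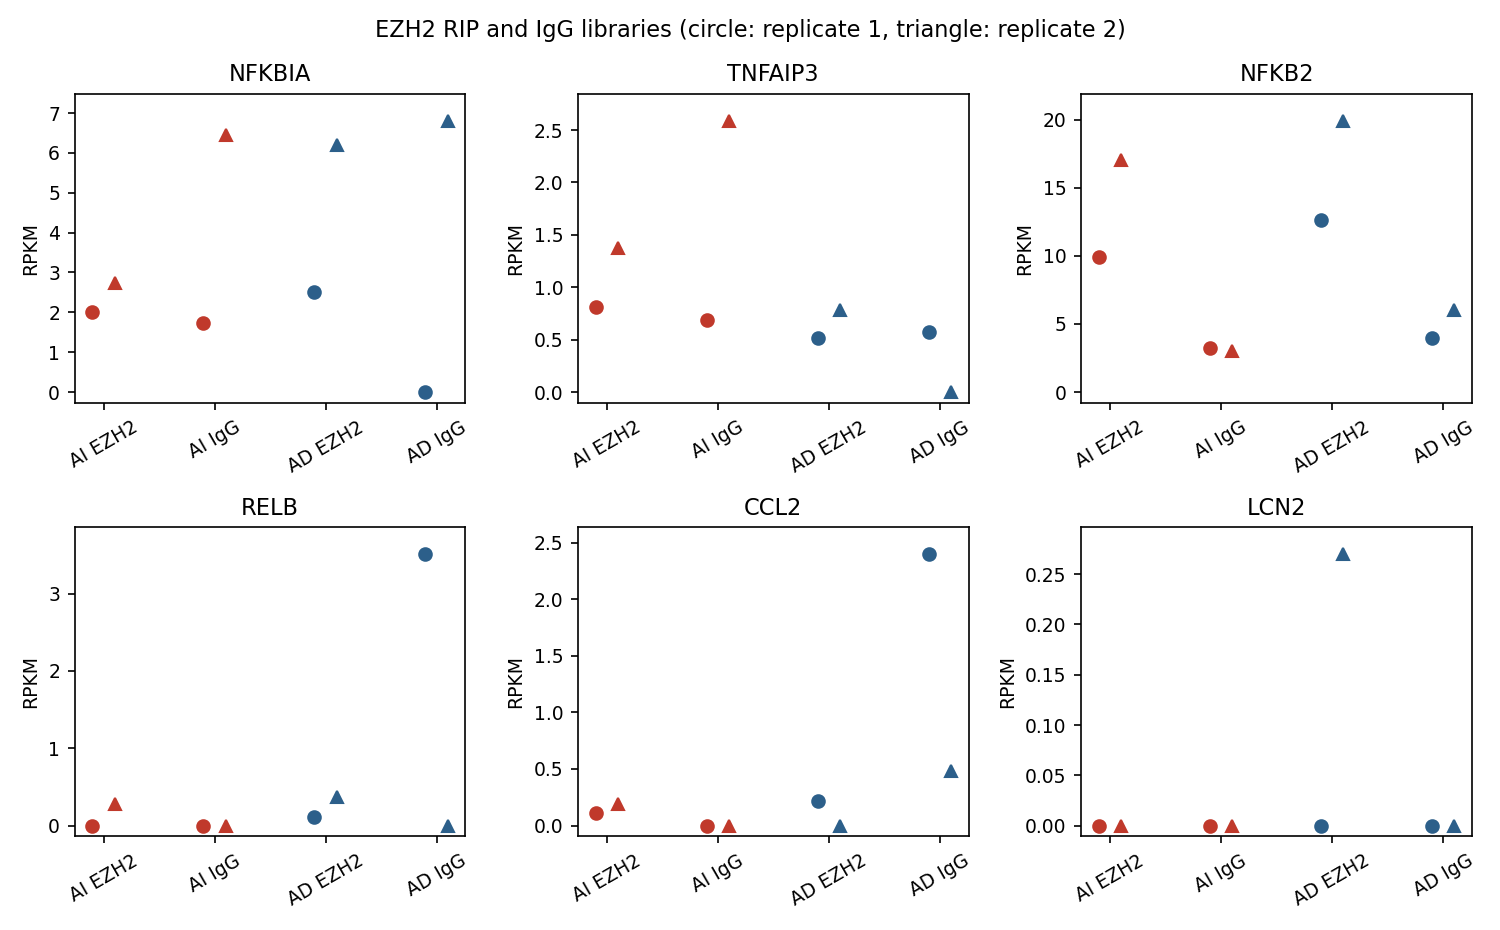
RPKM (y axis, linear, a scale of its own for each gene) of the 6 genes listed in the RIP table, in EZH2 RIP and IgG libraries of AI (red) and AD (blue), with a circle for replicate 1 and a triangle for replicate 2. NFKB2 has both EZH2 points above both IgG points in each line, and the other 5 genes do not show that in both lines.

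ChIP peak lists, deposited per sample, placed H3K27me3 on 3 of the 4 chemokine genes and on none of the NF-kB regulators. Positions are GRCh38, and a score per peak is the authors' own. CXCL1, at chr4:73869393-73871308, had H3K27me3 peaks over 81.5 and 49.8% of its length in AI, against 35.6 and 76.3% in AD, and a peak within 2 kb of its start in all 4 lists. CCL2, at chr17:34255285-34257203, was covered along 100.0% of its length in AI replicate 1 and in both AD lists, and in AI replicate 2 the nearest peak began 5648 bases away. CXCL8, at chr4:73740569-73743716, had peaks over 51.3 and 36.9% of its length in AI and 0% in both AD lists, where the nearest peaks lay 1601 and 6795 bases from the gene. Within 2 kb of the CXCL8 start, however, both AI lists and AD replicate 1 had a peak, and only AD replicate 2 had none. The peaks on CXCL8 were weak, with scores of 132 and 83.1, against 736 and 690 for the peaks nearest CXCL1 in the same AI lists.

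NFKBIA, TNFAIP3, NFKB2, RELB, CXCL10 and LCN2 had no H3K27me3 peak over the gene in any of the 4 lists. For LCN2, at chr9:128149453-128153453, the nearest peak was 49384 bases away or further in every list. Thus CCL2 lay under H3K27me3 peaks in AD cells of the ChIP experiment, for which no transfection is named. Its RNA was at 0 RPKM in both untreated AD libraries and above 11 RPKM only in transfected AD cells. LCN2, with 0.28 and 0 RPKM in untreated AD and raised in the same transfected libraries, had no such peak. The background was the protein-coding genes of the RNA-seq table that could be placed, 16311 for the body and 13138 for the start. Of these, 20.0 and 25.4% had a peak over the body in AI, and 18.5 and 19.9% in AD. A peak within 2 kb of the start was found for 7.5 and 17.0% in AI, and 8.91 and 10.4% in AD. With 3 and 2 of 9 genes covered in AI and 2 and 2 of 9 in AD, the shares of the 9 genes are near the backgrounds for the gene body. CXCL10, without a row in the RNA-seq table, is among the 9 but outside that background. Within 2 kb of the start, peaks were found for CXCL1 and CXCL8, and none for NFKBIA, TNFAIP3, NFKB2 and LCN2. CCL2, RELB and CXCL10 were not counted at the start. CXCL1 had such a peak in every list, and CXCL8 in every list except AD replicate 2. The peaks that cover the whole of CCL2 also take in its start. The genes counted are too few for their share to be set against the background.

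**Figure D5:**
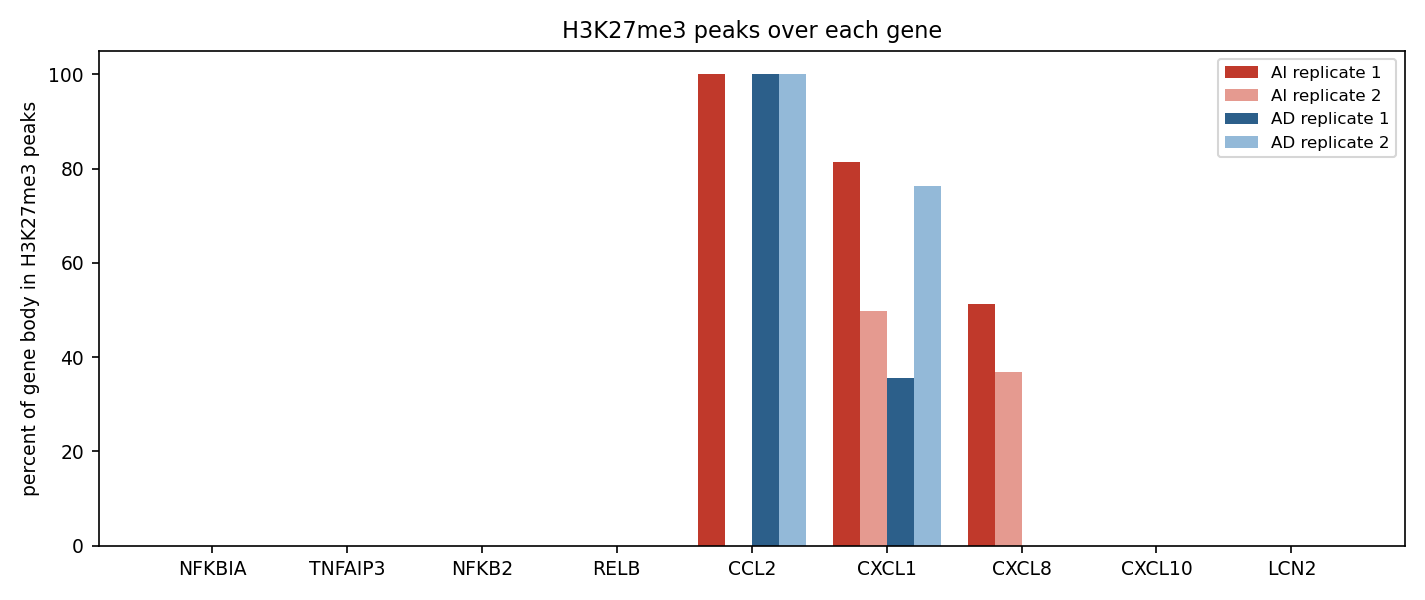
Percent of each gene body that lies in deposited H3K27me3 peaks (y axis) for the 9 genes (x axis), a bar for each AI (red shades) and AD (blue shades) list. Bars stand on CCL2, CXCL1 and CXCL8 alone, CCL2 lacking one in AI replicate 2 and CXCL8 in both AD lists.

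EZH2 peaks touched these genes in 1 list of 3. In AD replicate 1, a peak of 318 bases lay within NFKB2 and one of 483 bases within RELB, and a peak ended 67 bases before CXCL1, with scores of 52.6, 68.0 and 68.9. Neither the AI list nor AD replicate 2 had an EZH2 peak over or within 2 kb of the start of any of the 9 genes. AD replicate 1 held 53911 EZH2 peaks, against 11933 in the AI list and 12399 in AD replicate 2. Of the same background of protein-coding genes, 52.0% had one over the body there, against 23.1% in the AI list and 24.9% in AD replicate 2. Peaks within 2 kb of the start were found for 16.9% of genes in AD replicate 1, 5.21% in AD replicate 2 and 3.01% in AI.

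Profiles over the 12 RNA-seq libraries were compared by Pearson's r of log2 levels, as a description, since the libraries share 6 groups and the correlation follows the group means. Among themselves, the 7 tested genes ranged from r = 0.383 for LCN2 and NFKBIA to r = 0.985 for CCL2 and CXCL8. The genes most like LCN2 were RSAD2, an interferon-induced antiviral enzyme (r = 0.996), RBBP7, a histone-binding protein (0.995), the ceramide kinase CERK (0.994), the apolipoprotein-like APOL3 (0.994) and SAA1 (0.993), where the median gene had 0.401. The genes most like the mean profile of the 7 were RIPK4, a kinase (0.993), ADSS1 (0.991), the nuclear receptor NR2F6 (0.990), TXNIP, which binds thioredoxin (0.988), and APLP1 (0.988), where the median gene had 0.283.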

How the data were processed

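RNA levels were measured by RNA-seq in 12 libraries and by RIP in 8, and ChIP in 7 peak lists. The authors deposited RPKM per gene for RNA-seq and RIP. Per the submitters' processing notes cutadapt, TopHat2 and edgeR were named for RNA, and cutadapt and Bowtie2 for ChIP, with build GRCh38. Peak positions and a score per peak were deposited by the authors, and the peak caller is not given in the sources used here. Since RPKM are not counts, no count model was used. Values were tested as log2(RPKM + 0.5) with limma 3.58.1 (R 4.3.3, trended variance) in 1 fit over the 12 RNA-seq or the 8 RIP libraries, on genes at 0.5 RPKM or more in at least 2 libraries, with Benjamini-Hochberg adjustment over all genes. Fold changes on that scale understate the change of low genes. The procedure was tested on simulated data.

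The 9 genes and the pathway lists were chosen with earlier results of these data known. Named pathway genes are at most the 2 largest rises and falls per list among called genes averaging at least 1 RPKM. Peaks were counted over the gene body (at least 1 base) and within 2 kb of the start, with gene positions and promoters from RefSeq GRCh38.p14. Alternatives were pseudocounts of 0.1 and 1, no filter, a filter of 1 RPKM, quantile and TMM scaling, a replicate block, fits of only the compared groups, leaving out each library, and, added later, leaving out mitochondrially encoded genes. Depth was estimated from the spacing of low values and is approximate.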

Additional observations from a re-analysis of the deposited data

Results flagged for a closer look

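When the difference between the lines was itself fitted with limma, the mock minus untreated effect was called lower in AI than in AD for 42 of 72 pathway genes and higher for 7. Of all genes, 41.2% were called lower and 8.99% higher. The lists were drawn up with earlier results known and the comparison was added after the data had been seen, so these calls are a description. Quantile normalization gave 24 lower and 15 higher, and TMM 28 lower and 16 higher. Shares of all genes called under each scaling are not given, so these counts have no background beside them. The median of the pathway genes was -0.99, beside -0.54 over all genes. It was -0.42 beside 0.01 after quantile normalization, and -0.36 beside -0.01 after TMM. The subunit NFKB1 had a difference of -3.02 ± 0.15 on the log2 scale. Among inhibitors and editors NFKBIE had -1.87 ± 0.32, CYLD -2.43 ± 0.23 and TRAFD1 -1.32 ± 0.22, while BCL3 had 0.69 ± 0.19. The kinases RIPK1 and IKBKB had -3.53 ± 0.23 and -1.57 ± 0.22, and MAP3K14 had 2.47 ± 0.22. Among receptors, adaptors and ligands MYD88 had -2.11 ± 0.31, BIRC3 -1.80 ± 0.25 and TNFSF15 -2.08 ± 0.22, while TNFRSF12A had 0.91 ± 0.20 and LTBR 0.77 ± 0.15. The chemokine receptors ACKR3 and CXCR4 had -3.88 ± 0.15 and 2.39 ± 0.32, and SLC22A17 had -1.21 ± 0.30. Of other NF-kB-induced genes CD83 had -3.35 ± 0.31, IL32 -1.62 ± 0.25 and IER3 0.79 ± 0.25.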

How the results depend on the processing

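Quantile normalization and TMM scaling moved the median of all genes by 0.43 and 0.41 in mock AI against mock AD, by 0.51 and 0.45 in siEZH2 AI against siEZH2 AD, by -0.10 and -0.12 between untreated cells, by 0.20 and 0.18 in AI and -0.35 in AD for mock against untreated, and by 0.55 and 0.53 for the difference of the mock effects. After quantile normalization TNFAIP3 in siEZH2 AI against siEZH2 AD turned to 0.22, mock AI against mock AD had 32 pathway genes lower, siEZH2 AI against siEZH2 AD 15 higher, untreated AI against AD 8 higher, and mock against untreated AD 32 higher and 5 lower. The difference of mock effects then had 15 higher and 24 lower, and siEZH2 against mock called 11 genes in AI and 0 in AD. TMM gave 16 higher in siEZH2 AI against siEZH2 AD, 8 higher in untreated cells, 5 lower in mock against untreated AD, 16 higher for the difference of mock effects, and 43 (AI) and 0 (AD) genes for siEZH2 against mock. Without mitochondrially encoded genes, chosen after seeing the data, 31 pathway genes were lower in mock than untreated AI, 4 were higher for the difference of mock effects, and siEZH2 against mock called 59 genes in AI and 0 in AD.

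Fitting only the compared groups, untreated AI against AD called 1758 genes with 5 pathway genes higher and 6 lower, siEZH2 against mock called 1204 genes in AI with 3 pathway genes higher and 2 lower and 0 genes in AD, and the difference of siEZH2 effects called 1 gene. There, 1 of the 9 genes, NFKB2, was called in AI at a limma adjusted p of 0.0445, within 0.0445 to 0.439 over its alternatives. A pseudocount of 0.1 gave 1 pathway gene lower in siEZH2 against mock AI, 1 gene in AD and 1 for the difference, and a pseudocount of 1 gave 0 genes in AD. No filter gave 45 genes in AD with 1 pathway gene higher, and 38 for the difference, and the 1 RPKM filter 1 pathway gene lower in AI and 0 genes in AD. Leaving out 1 library, siEZH2 against mock called 0 to 0 genes in AI, whichever of the 4 was left out, and 0 to 0 in AD, and EZH2 RIP against IgG in AI called 0 to 733, with 733 without IgG replicate 1.

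The replicate numbers are 2 per group, and same-numbered libraries deviated together in untreated AI and AD (r = 0.70) and otherwise with r of -0.004 to 0.13 in RNA-seq, and with r of 0.097 to 0.71 between the RIP groups. The number was not taken as a pairing in the main fits. In RIP, however, same-numbered libraries deviated together in every pair of groups, EZH2 with IgG at r = 0.33 in AD and 0.24 in AI. The RIP fit without the replicate number thus leaves a shared deviation in its spread, and the fit with it is given beside it. The same limit holds for untreated AI against untreated AD, for which no fit paired by number within untreated cells was run. There replicate 2 had the higher mitochondrial share in both lines, 33.5% in AI and 32.6% in AD, against 19.6% and 18.4% in replicate 1. With the replicate block, siEZH2 against mock called 371 genes in AI with 1 pathway gene lower and 0 in AD, and EZH2 RIP against IgG called 1338 genes in AI, 1 of the 9 genes, NFKB2, among them, and 483 in AD. Keeping only peaks with a score of at least 100 left 0 genes with an EZH2 peak at the start and 0 over the body in AD replicate 1, and 1 and 1 with an H3K27me3 peak in AI replicate 2. The cause of these changes was not tested. Levels near 1 read limit CXCL1, CXCL8, and all RIP values against IgG.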
